A study of Mus musculus with 6 samples.

Results

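Integrin subunit and laminin chain genes were followed in ventricular tissue of mouse hearts taken at embryonic day 17.5. Members were taken by gene symbol: integrin alpha and beta subunits and laminin alpha, beta and gamma chains, which gave 37 of the 25006 genes listed, 26 of them integrin subunits (18 alpha and 8 beta) and 11 laminin chains. All 37 had at least 60 counts summed over the 6 libraries, the lowest being Itgb7 with 79, so every member was tested. The 3 libraries of the null-labelled group carry the genotype label VecadcreERT2; Prox1f/f, an inducible Cre recombinase driven by the promoter of VE-cadherin, an endothelial gene, with floxed alleles of Prox1. The 3 control libraries carry the genotype label WT on the same NMRI background, although the breeding described in the labels pairs Prox1 f/f females with Cre-carrying Prox1f/f males. Tamoxifen, which activates the inducible Cre, was given to the dams at E13.5 and E14.5 in a dose of 5 mg for every 40 g the dam weighed, and the labels describe this for both groups. Cre is named for the null-labelled group only, so effects of Cre and of Prox1 loss cannot be told apart. The labels do not say that each library is a separate embryo or whether embryos were pooled. Each group held libraries with mainly Y-linked counts and a library with mainly Xist counts, so no group is a single embryo measured again, and p-values measure the spread between these libraries. By its title, the series looked for pathways under the control of lymphatic vessels in heart development.

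Integrins are receptors of an alpha and a beta subunit that tie cells to the extracellular matrix or to other cells, and the alpha subunit largely sets which ligand is bound: collagens, laminins, proteins with the peptide motif RGD such as fibronectin, or partners on leukocytes. Laminins are secreted trimers of an alpha, a beta and a gamma chain that build the basement membrane around cardiomyocytes and blood vessels. In the heart, laminins with the alpha 2 chain line muscle fibres, while those with the alpha 4 and alpha 5 chains line vessels.

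The libraries held 36216206 to 41408973 counts in the null-labelled group and 35195544 to 44330594 in controls, at which 3 counts equal 0.0677 to 0.0852 CPM, a count scaled to library size. Prox1, the gene to be deleted, was not lower in null-labelled libraries. It had 6581, 5809 and 6924 counts in null-labelled libraries, against 6549, 5164 and 5265 in controls. Prox1 passed as higher (163.7 ± 3.91 CPM in null-labelled libraries and 147 ± 3.16 in controls, SD, n = 3 each, log2 fold change 0.15 ± 0.03 SE, edgeR adjusted p = 0.0293). That call held in 9 of 16 alternatives. Gene-level counts can include exons that a deletion leaves in place. Ventricular tissue also holds cells other than the endothelium that this Cre targets. The Prox1 value therefore neither supports the labels nor shows them wrong, and every direction below rests on them. Esr1, whose hormone-binding sequence is part of CreERT2, had 298, 244 and 290 counts in null-labelled libraries and 14, 9 and 19 in controls. Null-labelled 1 and 3 held 9218 and 9952 Y-linked counts together with 1798 and 5738 counts of Xist, while the control libraries with Y-linked counts held 28 and 29 of Xist. Members past the threshold are also given below without those null-labelled libraries, as are the lists of adhesion complex, basement membrane and integrin ligand genes. Counts of changed cell type markers are not given without them. Whether null-labelled 1 and 3 are mixtures holding RNA of embryos of both sexes was not tested, and each value that rests on them carries that doubt. Null-labelled 2 and control 3 were the libraries with few Y-linked counts (190 and 175) and high Xist (50586 and 49485), so control 3 was the only female-type control. Control 3 gave the highest control value for 24 of the 37 members, and the share over all genes is not given here. Sex and library cannot be told apart within the controls. The cardiomyocyte markers, 10 genes such as Myh7 and Tnnt2, summed to values between 78125 and 79570 CPM in null-labelled libraries, against 75478 to 81641 in controls. In edgeR 1 of the 10, Actc1, fell and 0 rose, beside 2.97% lower and 2.4% higher among all genes tested. DESeq2 called 3 of the 10 and limma-voom 0, beside 7.91% and 4.51% of all genes.

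Levels spanned more than 3 orders of magnitude on the scale of CPM per kilobase of exon. Itgb1, the beta subunit shared by most matrix receptors, stood highest with a mean of 278 over the 6 libraries, followed by Lamc1, the common gamma chain, with 139, Lamb1 with 83.2, Itga5 with 59.3, Lama4 with 51.6, Lamb2 with 48.4 and Itgb5 with 43.9. The lowest members were Itgb6 with 0.0682 and Itgax with 0.0839, both among epithelial or leukocyte subunits.

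**Figure D1:**
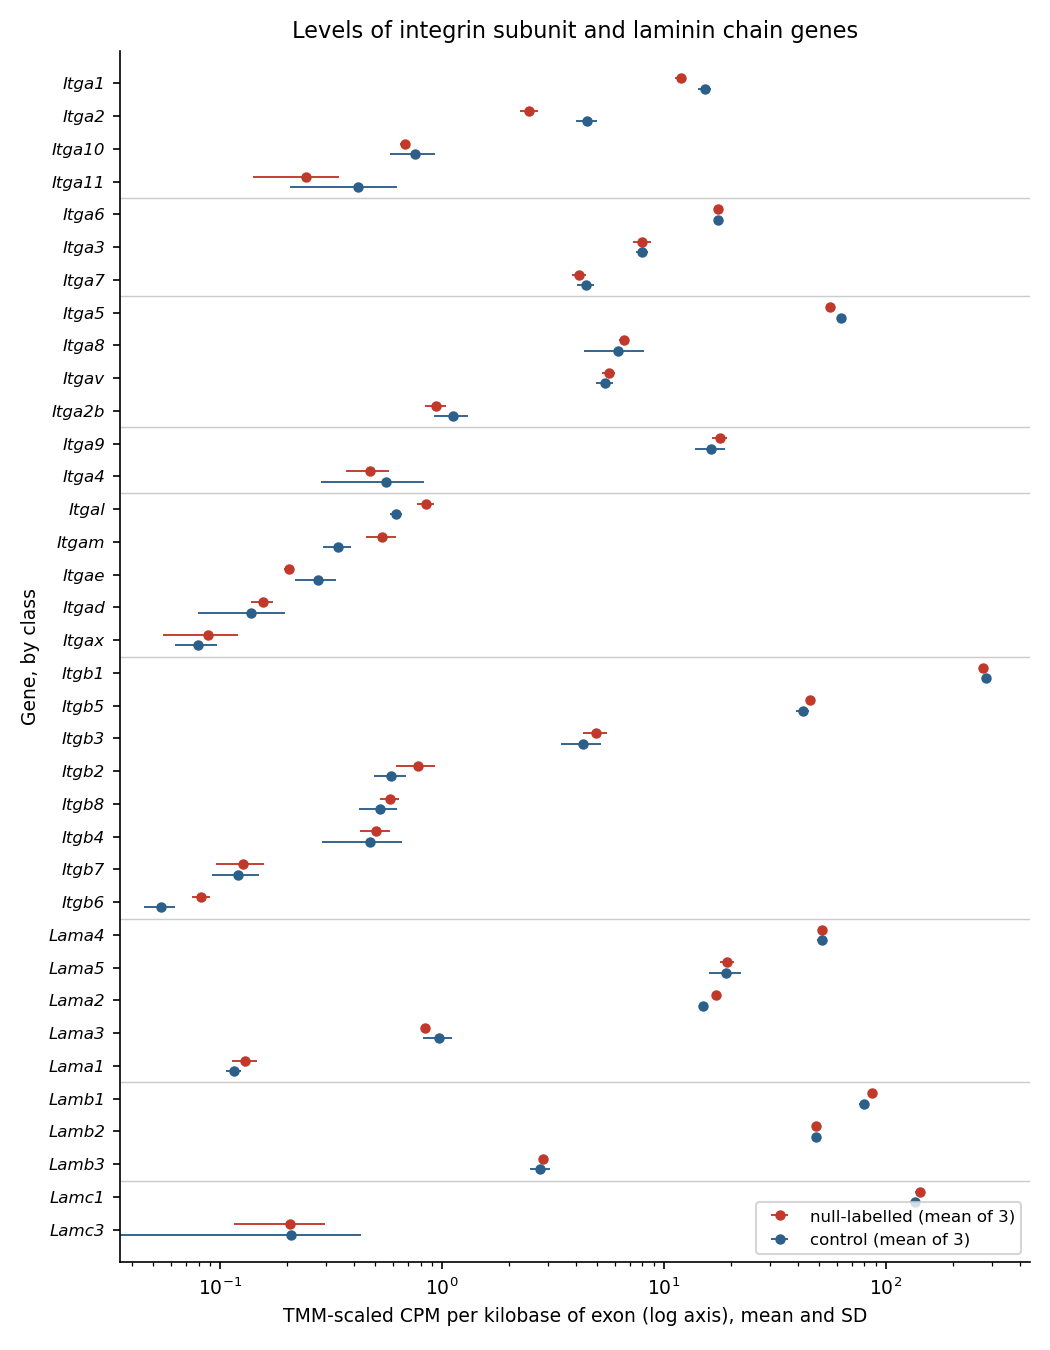
Levels of integrin and laminin genes in CPM per kilobase of exon on a log axis, grouped by class, with null-labelled means above control means (3 libraries each, bars are SD). Itgb1 and Lamc1 stand at the right, and Itga2, Itga1 and Itga5 lie lower in null-labelled ventricles.

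Of the 37 members, 3 fell in null-labelled ventricles, Itga2, Itga1 and Itga5, and 1 rose, Lama2, at an adjusted p under 0.05 (edgeR, quasi-likelihood F test). That is 10.8% of members, beside 5.37% of the 14773 genes tested. Among all genes tested 2.97% fell and 2.4% rose. The groups did not overlap for 10 members, beside 26.6% of all genes tested. The median log2 fold change of the 37 members was 0.044, beside −0.0040 for all genes, with 24 members above 0 and 13 below. DESeq2 and limma-voom each called 4 members, beside 7.91% and 4.51% of all genes. Without null-labelled 2 only 1 integrin subunit, Itga2, was lower. The fit without null-labelled 1 and 3 together leaves 1 null-labelled library. A call lost in it, here or below, therefore cannot be laid to those libraries rather than to the smaller group. In that fit the log2 fold changes were −1.02 for Itga2, −0.46 for Itga1, −0.14 for Itga5 and 0.14 for Lama2.

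**Figure D2:**
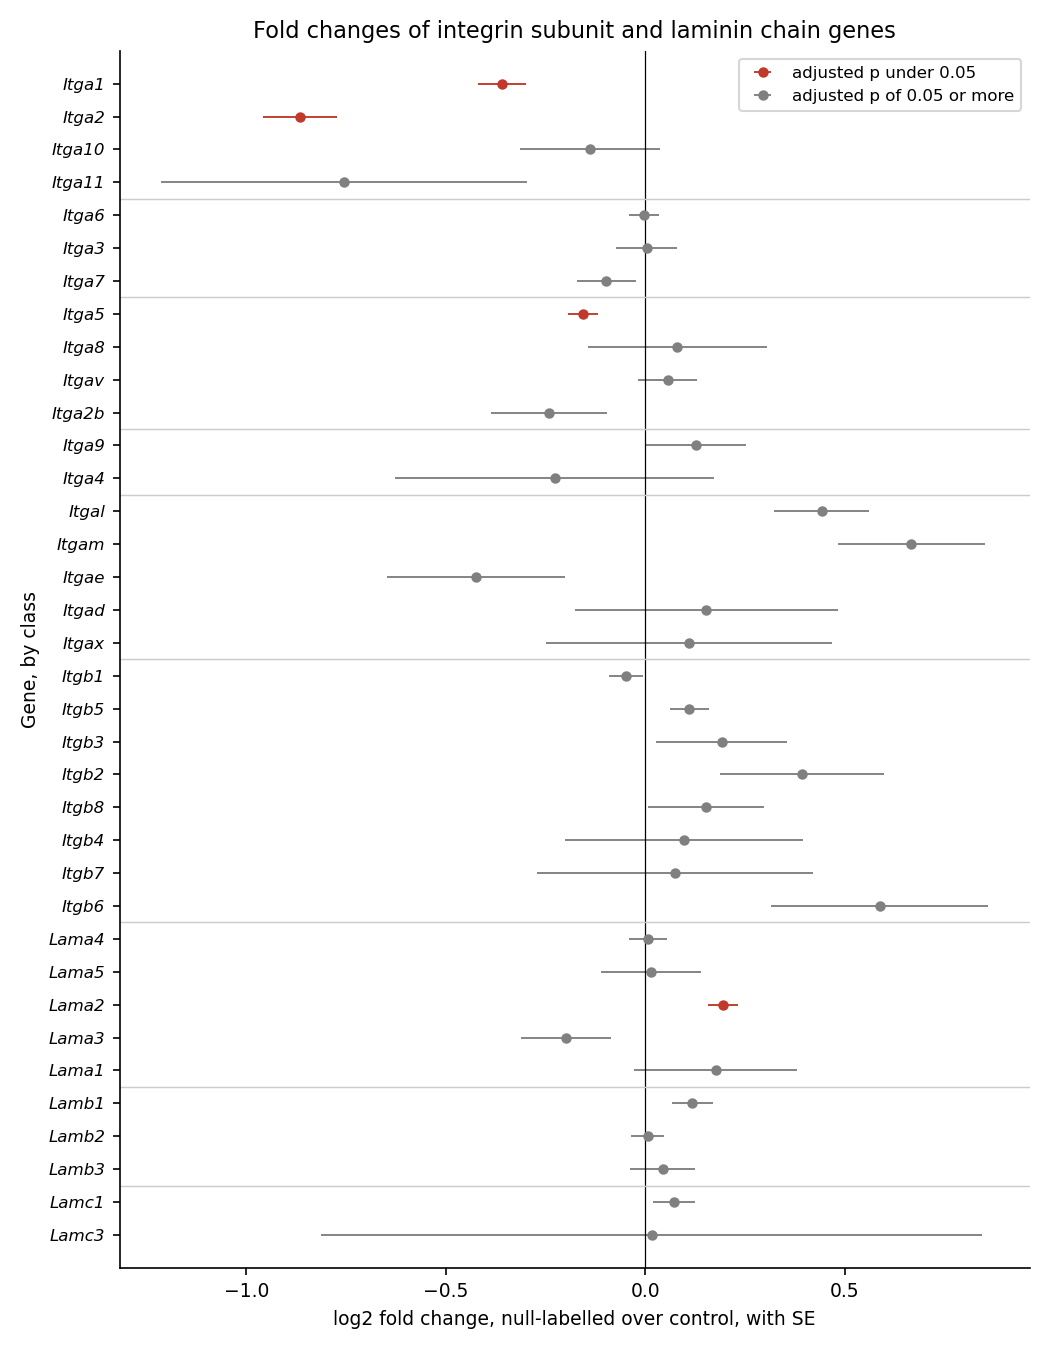
Log2 fold change of integrin and laminin genes, null-labelled over control, with standard error, grouped by class. The 4 genes past the threshold are in red: Itga2, Itga1 and Itga5 lie left of 0 and Lama2 right of it.

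The collagen-binding alpha subunits held the largest fall among members past the threshold. Itga2 (ENSMUSG00000015533, chromosome 13, 114833081 to 114932100, GRCm38, minus strand) encodes the alpha 2 subunit, which with beta 1 binds collagen on platelets, epithelial and endothelial cells. It had 17.9, 15.8 and 19.1 CPM in null-labelled libraries, against 34.3, 28.2 and 33.7 in controls. Every null-labelled library lay below every control. The means were 17.6 ± 1.65 CPM in null-labelled libraries and 32.1 ± 3.37 in controls (SD, n = 3 each), a 1.82-fold lower level (log2 fold change −0.86 ± 0.09 SE, edgeR adjusted p = 0.00232). The call held in 15 of 16 alternatives and was lost without null-labelled 1 and 3 together (log2 fold change −1.02, adjusted p = 0.0502).

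Itga1 (ENSMUSG00000042284, chromosome 13, 114953096 to 115101964, minus strand) encodes the alpha 1 subunit, the partner of beta 1 in the collagen receptor of smooth muscle, fibroblasts and microvascular endothelium. It had 230.0, 206 and 228 CPM in null-labelled libraries, against 293, 261 and 298 in controls, again with no overlap. The means were 221 ± 13.2 CPM in null-labelled libraries and 284 ± 20.004 in controls (SD, n = 3 each), which was 1.28-fold lower (log2 fold change −0.36 ± 0.06 SE, edgeR adjusted p = 0.0136). The call was lost without null-labelled 2 (adjusted p = 0.0517) and without null-labelled 1 and 3 together (0.137).

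The remaining collagen-binding subunits did not pass. Itga10, a receptor subunit of cartilage, had 3.54 ± 0.195 CPM in null-labelled libraries and 3.91 ± 0.906 in controls (log2 fold change −0.14, edgeR adjusted p = 0.719). Itga11, a subunit of fibroblasts that binds fibrillar collagen, had 1.24 ± 0.520 CPM in null-labelled libraries and 2.14 ± 1.08 in controls (log2 fold change −0.76, adjusted p = 0.415). The 4 collagen-binding subunits together summed to values between 226 and 253 CPM in null-labelled libraries, against 296 to 340 in controls.

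**Figure D3:**
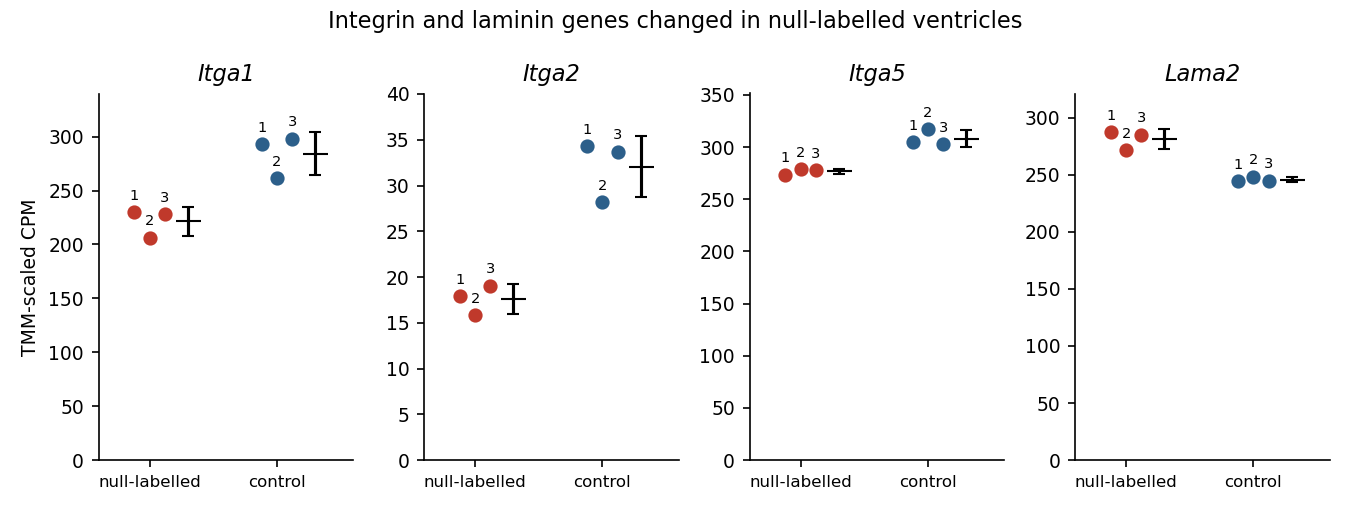
TMM-scaled CPM of the 4 members past the threshold in each library (points, numbered by replicate; bars are mean and SD, n = 3). Itga1, Itga2 and Itga5 lie lower in all 3 null-labelled libraries than in any control, and Lama2 lies higher.

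Itga2 and Itga1 are neighbours on chromosome 13, on the same strand and 21.0 kb apart. Within 1000 kb of the pair 7 genes were tested and 2 changed, the 2 integrin genes. Pelo, which encodes a ribosome rescue factor and lies inside Itga1 on the same strand, had 28.8, 26.4 and 23.8 CPM in null-labelled libraries and 25.7, 27.3 and 27.4 in controls (log2 fold change −0.023, edgeR adjusted p = 0.902). Mocs2, a gene of molybdenum cofactor synthesis on the other side of Itga2, had 34.1 ± 0.881 CPM in null-labelled libraries and 34.95 ± 1.17 in controls (SD, n = 3 each; log2 fold change −0.036, adjusted p = 0.735). The other tested neighbours, Arl15, Ndufs4 and Fst, had log2 fold changes of −0.031, 0.0031 and 0.18, with the 5 neighbours at adjusted p of 0.735 or more. These neighbours were chosen after the integrin values were seen, and Fst averaged 0.669 CPM in null-labelled libraries and 0.608 CPM in controls, with a standard error of 0.71 on its log2 fold change.

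**Figure D4:**
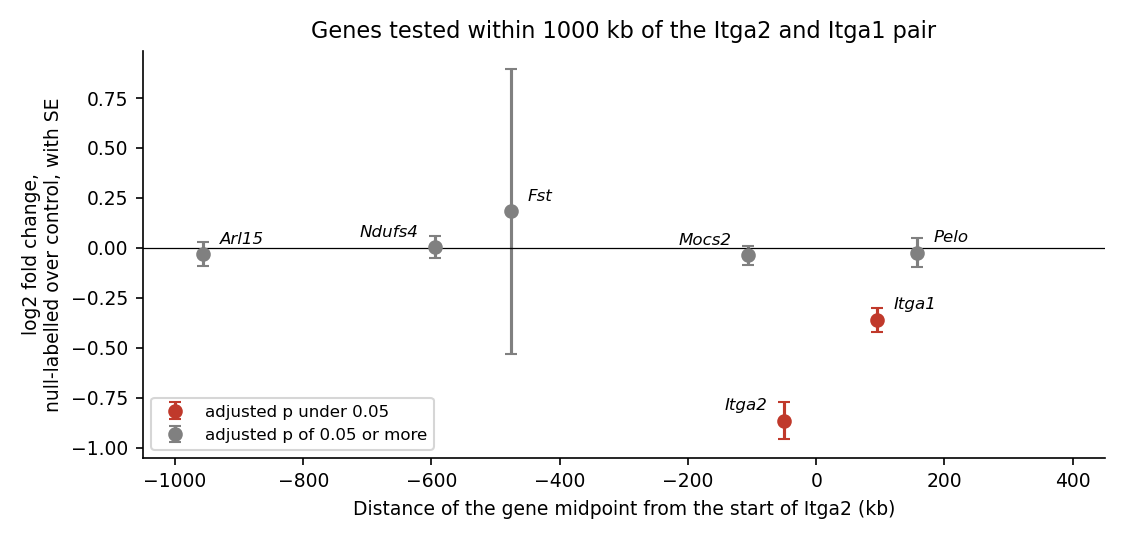
Log2 fold change, null-labelled over control, with standard error, of the 7 genes tested within 1000 kb of the Itga2 and Itga1 pair, by distance of the gene midpoint from the start of Itga2. The 2 integrin genes lie at −0.86 and −0.36, and the 5 neighbours at −0.036 to 0.18.

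The promoter windows of the 4 members past the threshold are shown so that the neighbouring pair can be read beside the others. They are RefSeq windows of 300 bases on GRCm38.p6, from 250 bases before to 50 bases after the annotated start, all on the minus strand and written 5′ to 3′, and RefSeq windows were at hand for 23 of the 37 members. Capitals mark the core of ETS factor sites, GGAA or its reverse complement TTCC. ETS factors act at many endothelial genes, and this core is short: 96.0% of 32851 such windows hold it, with a median of 3 matches. The windows lie at chr13:115101915-115102214 for Itga1, chr13:114932051-114932350 for Itga2, chr15:103366742-103367041 for Itga5 and chr10:27616893-27617192 for Lama2, a gene whose GENCODE start, at 27619758, lies further upstream.
Itga1: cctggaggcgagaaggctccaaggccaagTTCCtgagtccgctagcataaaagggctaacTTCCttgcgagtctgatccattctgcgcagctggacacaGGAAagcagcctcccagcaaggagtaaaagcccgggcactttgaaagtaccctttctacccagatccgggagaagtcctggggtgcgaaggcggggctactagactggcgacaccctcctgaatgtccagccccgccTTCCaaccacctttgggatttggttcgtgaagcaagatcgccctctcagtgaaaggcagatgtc
Itga2: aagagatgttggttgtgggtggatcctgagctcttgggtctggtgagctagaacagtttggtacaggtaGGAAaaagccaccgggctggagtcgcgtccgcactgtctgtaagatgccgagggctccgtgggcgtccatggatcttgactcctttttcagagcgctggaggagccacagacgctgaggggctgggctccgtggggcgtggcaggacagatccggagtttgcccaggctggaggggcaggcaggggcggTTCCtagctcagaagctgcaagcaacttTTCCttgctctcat
Itga5: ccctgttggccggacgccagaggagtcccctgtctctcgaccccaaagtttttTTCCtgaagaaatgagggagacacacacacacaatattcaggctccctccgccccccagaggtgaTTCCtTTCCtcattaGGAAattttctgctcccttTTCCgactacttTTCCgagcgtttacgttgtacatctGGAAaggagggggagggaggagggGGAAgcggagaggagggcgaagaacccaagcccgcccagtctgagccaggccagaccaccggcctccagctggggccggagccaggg
Lama2: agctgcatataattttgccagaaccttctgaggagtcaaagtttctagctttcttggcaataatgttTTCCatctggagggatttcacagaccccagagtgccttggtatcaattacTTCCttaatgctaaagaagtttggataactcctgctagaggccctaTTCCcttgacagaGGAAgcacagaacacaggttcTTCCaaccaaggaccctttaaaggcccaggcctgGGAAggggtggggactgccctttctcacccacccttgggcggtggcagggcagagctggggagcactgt

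The windows of Itga1 and Itga2 held 4 and 3 ETS cores, that of Itga5 held 8 and that of Lama2, the member that rose, held 6. The GC box GGGCGG, read on both strands like the others, stood 0 times in the Itga1 window, 1 time in that of Itga2, 2 times in that of Itga5 and 1 time in that of Lama2, while 35.7% of all windows hold it. None of the 4 windows held TATAAA (13.6% of all windows), CCAAT (37.4%), the AP-1 site TGANTCA (7.81%) or GGAATG, an element bound by TEAD factors (14.7%), which contains an ETS core. Matching letters are a description of these windows and not evidence of binding.

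Among the RGD-binding alpha subunits 1 of 4 fell, beside 2.97% of all genes tested. Itga5 (ENSMUSG00000000555, chromosome 15, 103344286 to 103366763, minus strand), the alpha subunit of the main fibronectin receptor, had 274, 279 and 278 CPM in null-labelled libraries, against 305, 317 and 302 in controls. The groups did not overlap, and the difference was small. Means were 277 ± 2.74 CPM in null-labelled libraries and 308 ± 7.94 in controls (SD, n = 3 each), 1.11-fold lower (log2 fold change −0.16 ± 0.04 SE, edgeR adjusted p = 0.0456). The call held in 6 of 16 alternatives, with adjusted p of 0.0909 with a replicate block and up to 0.14 without single libraries. Without null-labelled 1 and 3 together the log2 fold change of Itga5 was −0.143. The other RGD-binding subunits did not pass: the log2 fold change was 0.056 for Itgav, an alpha subunit of receptors that activate latent TGF beta (adjusted p = 0.73), and that of Itga2b, the platelet fibrinogen receptor subunit, was −0.24 (adjusted p = 0.395). Itga8, a subunit of smooth muscle and mesenchyme, had 49.3, 45.7 and 50.4 CPM in null-labelled libraries and 34.9, 41.6 and 61.3 in controls (log2 fold change 0.080, adjusted p = 0.891). Its control 3 stood above all null-labelled libraries, and without control 3 the log2 fold change was 0.34 (adjusted p = 0.0417). Of the Itga8 exon length 5.05% overlaps E030013I19Rik on the opposite strand.

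The laminin-binding alpha subunits and the alpha 4 and alpha 9 subunits did not pass. Itga6, which with beta 1 or beta 4 binds laminin on epithelial and endothelial cells, had 159, 162 and 153 CPM in null-labelled libraries and 158, 153 and 164 in controls (log2 fold change −0.0034 ± 0.038 SE, edgeR adjusted p = 0.973). Itga3, an epithelial and mesothelial laminin receptor subunit, had 48.2, 48.2 and 40.6 CPM in null-labelled libraries and 48.1, 46.2 and 42.3 in controls (log2 fold change 0.0032, adjusted p = 0.988). For Itga7, the laminin receptor subunit of muscle, it was −0.097 (adjusted p = 0.514). Approximate 95% intervals were taken from the standard errors with normal quantiles, so they are narrower than the F test would give. By these intervals the null-labelled level of Itga6 was 0.947-fold to 1.05-fold that of controls. That of Itga3 was 0.904-fold to 1.11-fold and that of Itga7 0.846-fold to 1.03-fold. Of the 3, 0 were called by edgeR, DESeq2 or limma-voom, beside 5.37%, 7.91% and 4.51% of all genes. An unadjusted p under 0.05 was found for 0 of the 3, beside 20.6% of all genes tested.

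Itga9, which binds the adhesion protein SVEP1, tenascin and fibronectin and is needed for lymphatic valves, had 149, 134 and 128 CPM in null-labelled libraries and 106, 127 and 145 in controls. The groups overlapped widely (log2 fold change 0.13 ± 0.12 SE, edgeR adjusted p = 0.641). Itga4, whose receptor binds VCAM1 on epicardial and blood cells, had 6.59 ± 1.43 CPM in null-labelled libraries and 7.78 ± 3.82 in controls (log2 fold change −0.23, adjusted p = 0.812). An exon stretch of 1124 bases of Itga4, 8.04% of its exon length, overlaps Cerkl on the opposite strand, and the strand setting of the counting is not given in the sources used here.

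Of the 8 beta subunits 0 passed in edgeR, DESeq2 or limma-voom and 1, Itgb5, had an unadjusted p under 0.05, beside 20.6% of all genes tested. Itgb1, the partner of every collagen-binding and laminin-binding alpha subunit, had 1160, 1090 and 1094 CPM in null-labelled libraries, against 1137, 1134 and 1186 in controls. The groups overlapped (log2 fold change −0.048 ± 0.043 SE, edgeR adjusted p = 0.588). Itgb5, a beta partner of alpha v, had 162, 159 and 165 CPM in null-labelled libraries and 141, 147 and 162 in controls (log2 fold change 0.11 ± 0.05 SE, adjusted p = 0.236), and control 3 lay within the null-labelled range. Without control 3 its log2 fold change was 0.17 (adjusted p = 0.0305). The share of Itgb1 in the summed beta subunit level per kilobase was 84.2%, 83.8% and 83.6% in null-labelled libraries and 86.2%, 85.5% and 84.6% in controls, with no overlap (difference −1.55 percentage points, exact two-sided permutation p = 0.1, the smallest that 3 libraries against 3 allow).

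The other beta subunits gave wider errors. Itgb3, the partner of alpha v and of alpha IIb, had 29.1 ± 3.58 CPM in null-labelled libraries and 25.5 ± 5.31 in controls (log2 fold change 0.19, edgeR adjusted p = 0.588). Itgb8, a TGF beta activating partner of alpha v, had a log2 fold change of 0.15 and Itgb4, the hemidesmosome partner of alpha 6, of 0.097, with adjusted p of 0.618 and 0.902. Itgb6, an epithelial partner of alpha v, had 0.647, 0.550 and 0.557 CPM in null-labelled libraries and 0.455, 0.361 and 0.340 in controls, without overlap but at low counts (114 in all, log2 fold change 0.59, adjusted p = 0.262). Itgb7, a lymphocyte subunit, differed by 0.075 on the log2 scale (adjusted p = 0.934).

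None of the leukocyte alpha subunits passed. Itgal, the alpha subunit of LFA-1, had 5.82, 5.86 and 4.96 CPM in null-labelled libraries and 3.86, 4.33 and 4.05 in controls (log2 fold change 0.44 ± 0.12 SE, edgeR adjusted p = 0.0628). Itgam, which encodes the CD11b subunit of myeloid cells, had 3.16, 2.59 and 2.35 CPM in null-labelled libraries and 1.57, 1.56 and 1.98 in controls (log2 fold change 0.67 ± 0.18 SE, adjusted p = 0.0686). For both genes every null-labelled library stood above every control, and neither passed. Itgb2, the shared beta subunit of leukocytes, differed by 0.39 on the log2 scale (adjusted p = 0.316). The log2 fold changes of the myeloid subunits Itgax and Itgad were 0.11 and 0.15, and that of Itgae, a subunit of tissue T cells, was −0.42 (adjusted p of 0.907, 0.847 and 0.319). Itgae stood apart in the other direction, with 0.920, 0.990 and 0.896 CPM in null-labelled libraries and 1.14, 1.08 and 1.56 in controls. The groups did not overlap for 3 of the 5 leukocyte alpha subunits, beside 26.6% of all genes tested. Of the 5 leukocyte alpha subunits 0 were called by edgeR, DESeq2 or limma-voom, beside 5.37%, 7.91% and 4.51% of all genes. An unadjusted p under 0.05 was found for 2 of them, beside 20.6% of all genes tested. Itgad shares 70 exon bases with Cox6a2, a heart gene of 86179 counts on the opposite strand, so its low level is uncertain.

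The summed level of the 5 leukocyte alpha subunits and Itgb2 was 13.7, 13.4 and 11.0 CPM in null-labelled libraries and 9.66, 9.50 and 10.4 in controls, a difference of 2.82 CPM with no overlap (exact two-sided permutation p = 0.1, the smallest possible). Of 12 macrophage markers 5 rose in edgeR, C1qc, C1qa, C1qb, Cx3cr1 and Mrc1, beside 2.4% of all genes tested. DESeq2 called 8 of the 12 and limma-voom 2, beside 7.91% and 4.51% of all genes. The list summed to values between 132 and 160 CPM in null-labelled libraries, against 105 to 120 in controls, with 0 of the 12 markers at 0. Of 2 T and NK cell markers tested 0 passed in edgeR, DESeq2 or limma-voom, 1 above 0 and 1 below. That list summed to between 1.19 and 1.79 CPM in null-labelled libraries, against 1.45 to 1.87 in controls. Of 6 granulocyte and mast cell markers tested edgeR and limma-voom called 0 and DESeq2 1. Their list summed to between 41.1 and 48.5 CPM in null-labelled libraries, against 40.1 to 45.5 in controls. The part of macrophage or other leukocyte content in the integrin values was not tested. In whole ventricle, fewer cells of a type and less RNA per cell cannot be told apart.

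Laminin alpha chains were led by Lama4, which did not pass, and only Lama2 rose among the 5, beside 2.4% of all genes tested. Lama2 (ENSMUSG00000019899, chromosome 10, 26980036 to 27619758, minus strand), the alpha chain of muscle basement membrane, had 287, 272 and 285 CPM in null-labelled libraries, against 244, 248 and 245 in controls. The groups stood apart with a narrow spread. Means were 281 ± 8.45 CPM in null-labelled libraries and 246 ± 2.14 in controls (SD, n = 3 each), 1.14-fold higher (log2 fold change 0.19 ± 0.04 SE, edgeR adjusted p = 0.0207). The call held in 11 of 16 alternatives and was lost with a replicate block (adjusted p = 0.0553) and without null-labelled 1 (0.0736), null-labelled 3 (0.0828), control 2 (0.0538) or null-labelled 1 and 3 together (0.451).

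Lama4, the alpha chain of endothelial and mesenchymal basement membranes, had 625, 614 and 634 CPM in null-labelled libraries and 653, 587 and 623 in controls (log2 fold change 0.0069 ± 0.047 SE, edgeR adjusted p = 0.956). Its approximate 95% interval ran from 0.943-fold to 1.07-fold. Lama5, a vascular and epithelial alpha chain, had 217, 204 and 236 CPM in null-labelled libraries and 194, 199 and 259 in controls (log2 fold change 0.014, adjusted p = 0.968), with control 3 above the rest. Lama3, the epithelial chain of hemidesmosomes, had 9.004 ± 0.363 CPM in null-labelled libraries and 10.4 ± 1.56 in controls (log2 fold change −0.20, adjusted p = 0.358). Lama1, the chain of early embryonic basement membranes, stood at 1.26 ± 0.165 CPM in null-labelled libraries and 1.12 ± 0.0870 in controls (log2 fold change 0.18, adjusted p = 0.69).

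On the scale of CPM per kilobase, Lama2 made up 19.7%, 19.2% and 19.0% of the summed laminin alpha level in null-labelled libraries and 17.2%, 18.4% and 16.5% in controls. The groups did not overlap, and the difference was 1.92 percentage points (exact two-sided permutation p = 0.1, the smallest possible). Lama4 made up 58.0 ± 0.780% in null-labelled libraries and 59.4 ± 2.61% in controls, and Lama5 21.6 ± 0.931% in null-labelled libraries and 21.9 ± 2.85% in controls (SD, n = 3 each, exact permutation p of 0.6 and 0.9). These shares depend on exon lengths and not on protein.

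**Figure D5:**
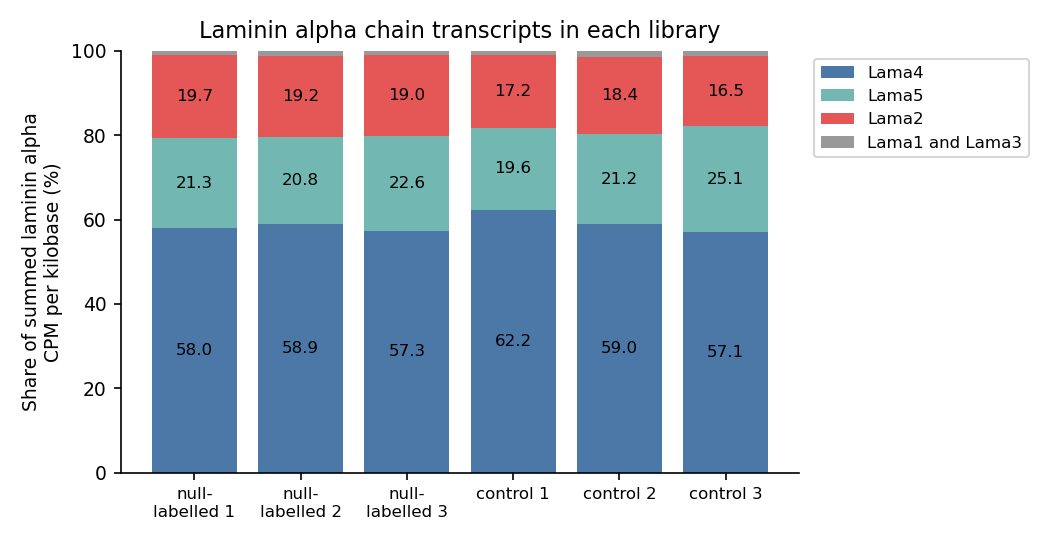
Share of each laminin alpha chain gene in the summed CPM per kilobase of the 5 alpha chains, 1 bar per library. Lama2 takes at least 19.0% in every null-labelled library and at most 18.4% in any control.

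The beta chains and the gamma chains Lamc1 and Lamc3 did not pass. Lamb1, the widely expressed beta chain, had 865, 819 and 892 CPM in null-labelled libraries and 812, 744 and 819 in controls, so that the lowest null-labelled library stood barely above the highest control (log2 fold change 0.12 ± 0.05 SE, edgeR adjusted p = 0.232). Lamb2, the beta chain of vessels and of the neuromuscular junction, had 288, 291 and 306 CPM in null-labelled libraries and 298, 288 and 296 in controls (log2 fold change 0.0058, adjusted p = 0.957). Its share of the beta chain level per kilobase was 35.2 ± 0.727% in null-labelled libraries and 36.9 ± 0.846% in controls, without overlap (SD, n = 3 each, exact permutation p = 0.1). Lamc1, the gamma chain of most laminins, had 1183, 1120 and 1235 CPM in null-labelled libraries and 1168, 1052 and 1145 in controls (log2 fold change 0.072 ± 0.053 SE, adjusted p = 0.502).

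Lamb3, the beta chain that joins Lama3 in the laminin of hemidesmosomes, had 18.9 ± 0.733 CPM in null-labelled libraries and 18.3 ± 1.92 in controls (log2 fold change 0.044, edgeR adjusted p = 0.817). Lamc3, a gamma chain, stood at 1.25 ± 0.553 CPM in null-labelled libraries and 1.27 ± 1.36 in controls, with control 3 at 2.83 CPM and controls 1 and 2 at 0.341 and 0.639. Of the 3 beta chains 0 passed in edgeR, DESeq2 or limma-voom, beside 5.37%, 7.91% and 4.51% of all genes. An unadjusted p under 0.05 was found for 1 of the 3, beside 20.6% of all genes tested. Of 8 mesothelial markers 2 fell (Krt19 and Upk1b), beside 2.97% of all genes tested. DESeq2 called 3 of the 8 and limma-voom 1, beside 7.91% and 4.51% of all genes. The median log2 fold change of the 8 was −0.45, with 7 below 0 and 1 above. These markers summed to values between 131 and 150 CPM in null-labelled libraries, against 141 to 187 in controls. Their part in the Lamb3 values was not tested.

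Genes of the complex that links integrins to actin were next compared, in a list that also took in other membrane proteins such as Cav1 and Cd151. Of the 47 genes listed 45 were tested, 7 fell and 0 rose, beside 2.97% lower and 2.4% higher among all genes tested. The median log2 fold change was −0.073. DESeq2 called 8 and limma-voom 6, beside 7.91% and 4.51% of all genes. Cav1, a membrane scaffold of capillary endothelium, had 513, 451 and 470 CPM in null-labelled libraries, against 749, 656 and 728 in controls (log2 fold change −0.57 ± 0.06 SE, edgeR adjusted p = 0.00218). Kank3, an endothelial adaptor, was 1.37-fold lower (33.8 ± 1.70 CPM in null-labelled libraries and 46.5 ± 3.32 in controls, adjusted p = 0.00471). Lims2, a partner of integrin-linked kinase, was 1.54-fold lower (adjusted p = 0.0241). Vasp, an actin elongation factor, and Flna, an actin cross-linker that binds beta subunit tails, had log2 fold changes of −0.19 and −0.23 (adjusted p of 0.0166 and 0.0324). Actn4, which cross-links actin, and Git1, an adhesion scaffold, made up the 7, at −0.18 and −0.14. Counts of lower adhesion genes came to 2 without null-labelled 2, 2 without null-labelled 3, 4 without control 2, 4 with a replicate block and 0 without null-labelled 1 and 3 together.

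Of 37 basement membrane partners of laminin and genes of the dystroglycan complex 2 rose and 1 fell, which is 8.11%, beside 5.37% of all genes tested. DESeq2 called 5 and limma-voom 2, beside 7.91% and 4.51% of all genes. The median log2 fold change was 0.013, with 25 genes above 0 and 12 below. Dmd, the gene of dystrophin, which links the laminin receptor dystroglycan to actin, had 173, 180 and 186 CPM in null-labelled libraries, against 154, 153 and 156 in controls (log2 fold change 0.22 ± 0.04 SE, edgeR adjusted p = 0.0109). Col4a4, a collagen IV chain, had 9.36 ± 0.525 CPM in null-labelled libraries and 6.28 ± 1.06 in controls (log2 fold change 0.58, adjusted p = 0.0276). Papln, a matrix proteoglycan, fell (log2 fold change −0.46, adjusted p = 0.0496), a call that held in 7 of 16 alternatives. Without null-labelled 2, and without null-labelled 1 and 3 together, 0 of the 37 genes passed in either direction. Higher genes numbered 1 without null-labelled 1, null-labelled 3, control 1 or control 2, and 3 without control 3. Of the fits without 1 library, Papln was called only in that without control 2.

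Among ligands and counter-receptors of integrins 37 of 42 genes were tested, and 4 rose and 4 fell, with a median log2 fold change of 0.15, beside 2.4% higher and 2.97% lower among all genes tested. DESeq2 called 12 and limma-voom 9, beside 7.91% and 4.51% of all genes. Jam2, a junction protein of vessels that alpha 4 beta 1 binds, had 20.7, 18.3 and 18.1 CPM in null-labelled libraries, against 33.98, 32.2 and 32.5 in controls, 1.73-fold lower (log2 fold change −0.79 ± 0.06 SE, edgeR adjusted p = 0.000371). Cspg4, Mfge8 and Icam2 also fell (log2 fold changes −0.21, −0.24 and −0.31). Cspg4 is a proteoglycan of pericytes, Mfge8 is a vascular RGD protein, and Icam2 is an endothelial ligand of LFA-1. Svep1, the ligand of alpha 9, had 51.8, 49.6 and 56.1 CPM in null-labelled libraries, against 41.2, 31.6 and 38.4 in controls (log2 fold change 0.50 ± 0.10 SE, adjusted p = 0.0317). The fibroblast collagens Col1a1, Col6a1 and Col6a2 rose by log2 fold changes of 0.29, 0.25 and 0.18. Counts of higher ligand genes came to 0 without null-labelled 1, 0 without null-labelled 2, 0 without null-labelled 3, 2 without control 1, 8 without control 3 and 1 with a sex term. Those of lower ones were 2 without null-labelled 2, 1 without null-labelled 3, 2 without control 2 and 2 without null-labelled 1 and 3 together.

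Markers of the cells that carry these genes were read beside them. Of 10 blood endothelial markers 5 fell and 0 rose, and all 10 had log2 fold changes below 0. Among all genes tested 2.97% fell and 2.4% rose, shares that apply to each marker list below. DESeq2 called 7 of the 10 and limma-voom 5, beside 7.91% and 4.51% of all genes. The blood endothelial markers summed to values between 1493 and 1631 CPM in null-labelled libraries, against 1807 to 2024 in controls. Of 8 fibroblast markers 3 rose, Pdgfra, Tcf21 and Col1a1, and 0 fell, and all 8 had log2 fold changes above 0. Col1a1, Col1a2 and Postn are also in the ligand list above, so the 2 lists are not separate readings. DESeq2 called 4 of the 8 and limma-voom 3. The fibroblast markers summed to values between 5635 and 6231 CPM in null-labelled libraries, against 4672 to 5395 in controls. Of 9 mural markers 1 fell, Cspg4, which is also the fallen gene of that name in the ligand list. The mural markers summed to values between 1852 and 1974 CPM in null-labelled libraries, against 1779 to 2324 in controls. Of 10 platelet and megakaryocyte markers tested 0 passed in edgeR, DESeq2 or limma-voom. An unadjusted p under 0.05 was found for 1 of the 10, beside 20.6% of all genes tested. The platelet and megakaryocyte list summed to values between 19.2 and 20.8 CPM in null-labelled libraries, against 16.7 to 20.4 in controls. No marker of these 4 lists stood at 0 in all libraries. Of 10 surface epithelial markers 4 were tested and 1, Krt14, fell, in 9 of 16 alternatives (0.354 ± 0.185 CPM in null-labelled libraries and 1.31 ± 0.436 in controls, SD, n = 3 each), while the other 3 had log2 fold changes above 0 and did not pass. The median of the 4 was 0.32, although the list summed to values between 2.78 and 3.51 CPM in null-labelled libraries, against 3.76 to 4.08 in controls.

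Lymphatic endothelial markers were read for the same reason, with 6 of 7 tested and Ccl21a at 0 in every library. Of the 6, 2 fell and 1 rose, which was Prox1, beside 2.97% lower and 2.4% higher among all genes tested. DESeq2 and limma-voom each called 3. Of the 6, 5 had log2 fold changes below 0. Reln, a secreted glycoprotein of lymphatic endothelium, had 15.6, 15.3 and 17.4 CPM in null-labelled libraries, against 26.7, 25.8 and 27.1 in controls (log2 fold change −0.72 ± 0.07 SE, edgeR adjusted p = 0.000663). Mmrn1, a protein of lymphatic endothelium and platelets, had 2.56, 1.35 and 1.82 CPM in null-labelled libraries, against 6.43, 9.86 and 13.8 in controls (log2 fold change −2.38 ± 0.36 SE, adjusted p = 0.0212). Neither gene's groups overlapped, and the calls held in 16 of 16 alternatives for Reln and 11 of 16 for Mmrn1. The list summed to values between 262.5 and 273 CPM in null-labelled libraries, against 261 to 285 in controls, and Prox1 made up most of that sum. The part of blood and lymphatic endothelial, fibroblast and epithelial content in the values of Itga1, Itga2, Itga5 and Lama2 was not tested.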

How the data were processed

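The authors deposited whole-number counts per gene, unscaled, in a separate file for each library. The tools named are DESeq2, HTSeq 0.6.1p1, STAR and cutadapt 1.13, with build mm10, per the submitters' processing notes. Their order, strand handling and annotation release were not given in the sources used here. Of 25006 Ensembl identifiers 24991 matched GENCODE M21 (GRCm38), which gave symbols and exon lengths.

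Genes with at least 60 counts summed over 6 libraries were tested in R 4.3.3 with edgeR 4.0.16 (quasi-likelihood F test, robust, TMM scaling, group only, two-sided), adjusted by Benjamini-Hochberg over 14773 genes and called at adjusted p under 0.05. Standard errors came from the fold change and F statistic, and folds from fitted values. Levels are TMM-scaled CPM. Alternatives used DESeq2 1.42.0, limma-voom 3.58.1, other scalings, filters and terms, and omitted libraries. The test was checked on simulated counts.

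Members and lists were chosen with earlier results of these data known. Described in full were changed members, the most abundant ones by class and, per partner list, up to 5 changed genes of smallest p. Intervals cover the spread between libraries and are narrower than the F test would give. The values of 1 laminin chain are not reported here.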

Additional observations from a re-analysis of the deposited data

How the results depend on the processing

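Leaving out 1 library at a time, counts ranged from 132 to 444 for all genes higher, 124 to 489 for all genes lower, 1 to 3 for integrin subunits lower, 0 to 2 for integrin subunits higher, 0 to 1 for laminin chains in either direction, 2 to 9 for adhesion complex genes lower, 0 to 3 and 0 to 1 for basement membrane genes higher and lower, and 0 to 8 and 1 to 4 for integrin ligands higher and lower. Without null-labelled 1 and 3 together, a fit in which the lone null-labelled library is assumed to vary like the controls, 21 genes were higher and 27 lower, with 0 integrin subunits lower, 0 laminin chains higher, 0 adhesion genes lower, 0 basement membrane genes in either direction, and 0 ligands higher and 2 lower. DESeq2 called 541 genes higher, 7 ligands higher and 2 basement membrane genes lower. The basement membrane count was 0 lower with RLE scaling, limma-voom or a sex term and 2 lower with no filter, and a sex term left 1 ligand higher. Same-numbered libraries did not deviate together over the genes tested (correlations of −0.047, −0.093 and −0.157). Such correlations cannot exclude a shared litter or day, and the numbers are not stated to mark either. A replicate block gave 272 higher and 301 lower genes, 0 laminin chains higher and 4 adhesion genes lower.

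The 4 changed members kept their sign in all 16 alternatives each, with log2 fold changes of −1.02 to −0.79 for Itga2, −0.46 to −0.31 for Itga1, −0.17 to −0.14 for Itga5 and 0.14 to 0.22 for Lama2. Across the 37 members 42 of the refitted values changed sign, none of a gene called in either fit: leaving out 1 library gave −0.0303 to 0.024 for Itga6, −0.0471 to 0.082 for Itga3, −0.0343 to 0.0456 for Lama4, −0.0609 to 0.159 for Lama5, −0.31 to 0.0266 for Itga10, −0.0851 to 0.344 for Itga8, −0.000415 to 0.135 for Itgav, −0.523 to 0.215 for Itga4, −0.17 to 0.36 for Itgax, −0.13 to 0.48 for Itgad, −0.201 to 0.343 for Itgb4, −0.109 to 0.275 for Itgb7, −0.0222 to 0.0232 for Lamb2, −0.0347 to 0.119 for Lamb3, −0.459 to 1.38 for Lamc3, up to 0.108 for Lamc1, 0.317 for Itgb8 and 0.276 for Lama1, and −0.0925 to 0.0461 for the neighbour Pelo. Without null-labelled 1 and 3 the values were 0.0353 for Itga6, −0.0169 for Lama4, −0.0858 for Lama5, −0.00121 for Lamc1, −0.00451 for Itga8, −0.0296 for Itgav, −0.0245 for Itgb8, −0.0542 for Lama1, −0.0149 for Lamb2, −0.00475 for Lamb3, −0.502 for Lamc3, −0.558 for Itga4, 0.574 for Itgax and 0.406 for Itgb7. Itga6 was 0.0013 with RLE scaling, 0.00591 with upper quartile scaling and 0.00125 with DESeq2, Lamc3 was −0.00717 with DESeq2 and Itga3 −0.0038 with limma-voom. The Lama4 share difference ran from −2.57 to 0.00825 percentage points and that of Lama5 from −1.56 to 1.2 on leaving out 1 library, and the other 4 single values kept their sign. The cause of these shifts was not tested.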
